A study of Mus musculus with 4 samples.

Results

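Immunoglobulin variable (V) segments are the short genes at the heavy (*Igh*), kappa (*Igk*) and lambda (*Igl*) loci from which B cells build the antigen-binding end of an antibody. A developing B cell joins 1 V segment to a D and a J segment at the heavy locus, or to a J segment at a light chain locus, and transcribes the product together with a constant gene, so that a varied B cell population shows many V segments at low levels and a clonal one shows few. Neutrophils and other myeloid cells leave these loci in germline form. The segments were measured here in libraries of sorted myeloid cells, by bulk RNA sequencing, and were taken as every gene named as an *Ighv*, *Igkv* or *Iglv* segment with a mean of at least 0.1 FPKM over the 4 libraries. FPKM are fragments of a gene corrected for the length of its transcript and for the depth of the library. Of 28585 genes listed, 207 were V segments (118 heavy, 86 kappa and 3 lambda), and 144 of them (89 heavy, 52 kappa and 3 lambda) passed this level.

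The cells were polymorphonuclear myeloid-derived suppressor cells (PMN-MDSCs), which are neutrophils that restrain T cells, sorted as CD11b+ Ly6C low or negative and Ly6G+ from the spleens of mouse pups on postnatal day 7, with 300000 cells to a library. The 2 Dhps cko libraries came from *Dhps* fl/fl pups with a *Lysm* Cre, in which the Cre recombinase is driven by the *Lysm* (*Lyz2*) promoter of myeloid cells, and the 2 Dhps flox libraries came from *Dhps* fl/fl pups, so that both genotypes carried floxed *Dhps*, the gene of deoxyhypusine synthase, and all mice had a C57BL/6J background. The paper describes the pups of the 2 genotypes as littermates. The labels do not say which libraries shared a litter, whether the replicates were separate animals or whether animals were pooled. The p-values therefore measure only the spread between these libraries. The targeted *Dhps* had 2.38 and 2.59 FPKM in the Dhps cko libraries, replicate 1 first, and 3.57 and 3.11 FPKM in the Dhps flox libraries. It was lower in Dhps cko without overlap, with a log2 fold change of -0.41 (SE 0.13) that did not pass limma's test (adjusted p = 0.63). The 12 neutrophil markers summed to between 73002 and 79945 FPKM and the 12 B cell markers to between 19.4 and 31.7 FPKM, and approximate depths were between 29600000 and 32900000 fragments.

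The members were chosen on their mean level, so the levels below describe them and test nothing. Just inside the threshold, at a mean of exactly 0.1 FPKM, lay *Ighv1-36*, *Ighv1-77*, *Ighv14-3*, *Igkv4-50* and *Igkv4-79*, and just outside it lay *Ighv2-4* at 0.095 FPKM and *Igkv12-44* and *Igkv3-7* at 0.0925 FPKM each. Of the 144 members, 73 were above 0 in all 4 libraries and 6 in a single library. Their mean level ran from 0.1 to 29.1 FPKM with a median of 0.35 FPKM, and only 28 reached a mean of 1 FPKM. These segments are short, with a median transcript length of 359 bases, and 46 of the 144 rested on fewer than 10 fragments over all 4 libraries together. Single values of such segments carry a large counting error.

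The most abundant segment is shown first by its sequence, because it is annotated as a pseudogene and its reading frame can be read from the letters. *Ighv1-41* lies at chr12:114932371-114932782 on the minus strand of GRCm38 (mm10), and its transcript in the GENCODE M21 annotation is spliced to 329 bases. The first 210 bases, printed 5′ to 3′ with the first stop codon in the frame of the first ATG in capitals, are:
Ighv1-41: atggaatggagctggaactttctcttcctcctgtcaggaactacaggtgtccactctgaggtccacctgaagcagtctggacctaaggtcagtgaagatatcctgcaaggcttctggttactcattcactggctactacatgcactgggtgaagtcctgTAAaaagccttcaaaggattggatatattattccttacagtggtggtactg

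That stop follows 53 codons, of 109 that the transcript could hold. All 7 pseudogenes among the members begin with ATG and hold a stop in that frame. Of the segments listed that begin with ATG, 14 of 16 pseudogenes and 2 of 105 functional segments hold one.

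The 3′ ends of the 6 most abundant heavy segments, of *Ighv1-26*, which had the smallest p between genotypes among the members, and of the leading lambda segments are set side by side because they hold the conserved tyrosine and cysteine codons in front of the joint with D or J, and because their likeness bears on how reads can be told apart. The last 110 bases of each transcript are printed on the sense strand, with the letters TANTNNTGT in capitals where they occur and otherwise the last TGT:
Ighv1-41: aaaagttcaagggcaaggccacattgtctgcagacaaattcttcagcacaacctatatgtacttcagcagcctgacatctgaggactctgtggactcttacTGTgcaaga
Ighv1-69: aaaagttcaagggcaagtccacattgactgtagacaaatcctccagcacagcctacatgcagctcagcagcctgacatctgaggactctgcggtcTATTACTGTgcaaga
Ighv1-74: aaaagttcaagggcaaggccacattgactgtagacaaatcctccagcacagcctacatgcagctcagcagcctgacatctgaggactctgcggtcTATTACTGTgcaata
Ighv1-52: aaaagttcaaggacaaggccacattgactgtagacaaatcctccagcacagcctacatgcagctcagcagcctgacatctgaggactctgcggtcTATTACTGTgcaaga
Ighv1-73: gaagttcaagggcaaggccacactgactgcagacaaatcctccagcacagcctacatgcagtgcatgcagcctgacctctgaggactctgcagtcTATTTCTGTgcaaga
Ighv8-4: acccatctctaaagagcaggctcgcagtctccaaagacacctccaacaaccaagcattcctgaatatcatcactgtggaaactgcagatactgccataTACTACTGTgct
Ighv1-26: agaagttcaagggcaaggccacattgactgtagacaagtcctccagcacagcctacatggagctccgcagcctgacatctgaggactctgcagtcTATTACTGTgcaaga
Iglv1: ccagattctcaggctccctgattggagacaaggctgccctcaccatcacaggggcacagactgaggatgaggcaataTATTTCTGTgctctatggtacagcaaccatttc
Iglv2: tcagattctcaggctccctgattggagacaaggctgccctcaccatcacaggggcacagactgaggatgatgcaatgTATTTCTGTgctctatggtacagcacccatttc

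The letters TANTNNTGT, searched on the sense strand only, were present in this window in 168 of 207 listed segments (81.2%), in 122 of the 144 members and in 17 of 21 listed pseudogenes. *Ighv1-41* was among those without them. Over the whole transcript, *Ighv1-69*, *Ighv1-74* and *Ighv1-52* were between 94.6% and 96.0% identical to each other, and *Iglv1* and *Iglv2* were 96.7% identical, so the levels within these groups are uncertain where reads cannot be placed. *Ighv8-4*, of another family, was 56.6% to 58.0% identical to the other 5 of the 6 heavy segments and shared 0 words of 51 bases with any other annotated transcript. Words of 51 bases that occur in another annotated transcript made up 66.8% of *Ighv1-52*, 40.9% of *Ighv1-69* and 35.2% of *Ighv1-74*. For *Ighv1-41* the share was 5.73%, and its nearest listed segment, *Ighv1-38*, was 83.7% identical and at a mean of 0.0325 FPKM. Where along the transcript the fragments of *Ighv1-41* fell was not measured.

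Heavy chain segments held most of the V transcript. They summed to 145 and 131 FPKM in Dhps cko and to 124 and 122 FPKM in Dhps flox, which was more than the kappa and lambda segments together in every library. *Ighv1-41* was first in every library, at 34.3 and 29.99 FPKM in Dhps cko and at 24.4 and 27.8 FPKM in Dhps flox, and held 23.6%, 22.9%, 19.6% and 22.8% of the heavy FPKM. It rested on about 240 to 371 fragments in a library. Behind it came *Ighv1-69*, a functional segment, at 14.9, 10.96, 15.9 and 14.4 FPKM in the same order of libraries. The functional segment *Ighv1-74* was at 11.8, 14.0, 10.8 and 9.36 FPKM. The libraries of *Ighv1-69* and *Ighv1-74* overlapped each other in level, so their order is not settled. Next came a second pseudogene, *Ighv1-73*, with 5.04, 5.81, 7.74 and 7.20 FPKM. The 4 leading segments of each library, ranked within it, held between 46.4% and 48.2% of its heavy FPKM. They were these 4 segments except in Dhps cko replicate 1, where *Ighv1-52* stood above *Ighv1-73*.

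The remaining heavy segments formed a long tail. *Ighv1-52* was at 8.12, 4.31, 6.65 and 5.11 FPKM and *Ighv8-4* at 4.30, 3.41, 5.61 and 4.26 FPKM. Expressed as an effective number, which is the number of equally used segments that would give the same concentration (the inverse of the summed squared shares), the heavy members amounted to 11.7 and 12.4 segments in Dhps cko and to 13.0 and 11.6 in Dhps flox. The 2 genotypes overlapped on this measure. The 7 pseudogenes among the heavy members, led by *Ighv1-41* and *Ighv1-73*, held between 28.9% and 32.0% of the heavy FPKM. With the pseudogenes left out, the functional heavy segments still summed to 101.8, 92.1, 88.4 and 83.0 FPKM.

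By family, the 46 *Ighv1* members, of 63 listed, held 75.5% of the heavy FPKM on average, and the 8 *Ighv8* members held 9.12%. Every other heavy family held less than 3.2%. The listed segments were divided by distance from the J segments into 3 stretches with 39 or 40 segments each. The nearest stretch held 14.1% of the heavy FPKM, the middle one 44.8% and the farthest one 41.0%. The nearest held 33 members but only 4 that reached 1 FPKM, whereas the middle and farthest held 9 each. With the 4 most abundant segments left out, the stretches summed to 18.4, 29.4 and 21.6 FPKM, so most of the unevenness lay in those 4.

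**Figure D1:**
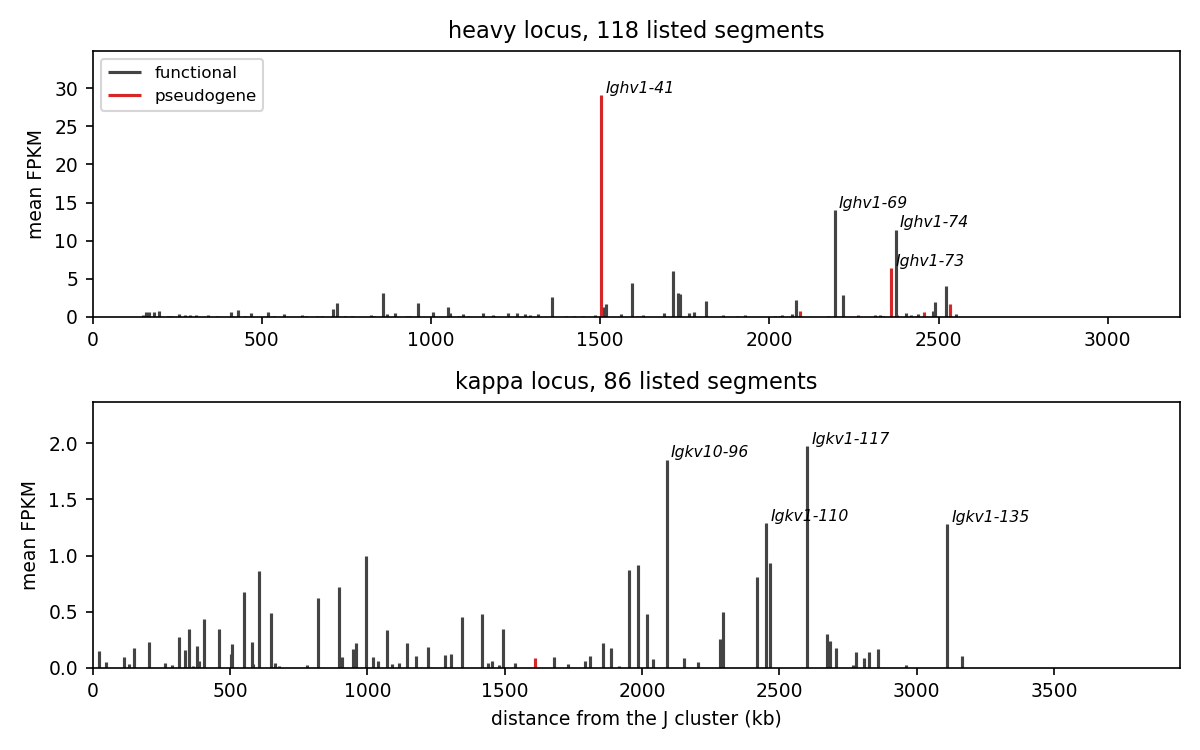
Mean FPKM over the 4 libraries (vertical axis) of each listed heavy segment (top) and kappa segment (bottom) against its distance from the J cluster in kilobases (horizontal axis). Black lines are functional segments and red lines pseudogenes. A single pseudogene, *Ighv1-41*, stands at 29.1 FPKM near the middle of the heavy locus, while no kappa segment reaches 2 FPKM.

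Kappa segments were spread far more evenly than heavy ones. They summed to 25.0 and 25.2 FPKM in Dhps cko and to 23.1 and 19.3 FPKM in Dhps flox. The leading segment was not the same in every library: it was *Igkv10-96* with 10.3% of the kappa FPKM in Dhps cko replicate 1, *Igkv1-117* with 8.35% in Dhps cko replicate 2 and 10.7% in Dhps flox replicate 1, and *Igkv1-135* with 12.1% in Dhps flox replicate 2. *Igkv1-117* was at 1.55, 2.1, 2.47 and 1.78 FPKM and *Igkv10-96* at 2.57, 1.99, 1.57 and 1.29 FPKM. *Igkv1-135* was at 0.75, 1.38, 0.65 and 2.34 FPKM, so that its lead in Dhps flox replicate 2 was not repeated in the other library of that genotype. *Igkv1-117* and *Igkv1-110* shared 174 words of 51 bases, about a 50% share of each transcript, and their levels are uncertain for that reason.

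The effective number of kappa segments was 23.9 and 23.6 in Dhps cko and 20.6 and 19.1 in Dhps flox, and 41, 40, 36 and 35 of the 52 members were above 0. Both measures were higher in Dhps cko without overlap. So was the number of heavy members above 0, at 76 and 80 in Dhps cko and 74 and 67 in Dhps flox. The approximate depth was also higher in Dhps cko, at 32900000 and 31100000 fragments against 29900000 and 29600000. At 0 in both Dhps flox libraries were 8 kappa members, against 4 in both Dhps cko libraries. Of all 2302 genes tested of 0.1 up to 0.2 FPKM, 80 and 78 were. The part of depth in these measures was not tested. With 2 libraries a genotype the smallest p of an exact two-sided permutation test is 0.33, so no single value of this kind could pass one. *Igkv1* held 21.3% of the kappa FPKM and *Igkv4*, the kappa family with the most listed segments, 15.3%. Of 3 such stretches of the kappa locus, the one farthest from the J cluster held 54.5%, and all 4 kappa segments of at least 1 FPKM lay in it.

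The lambda locus of mice has few V segments, and all 3 listed were members. *Iglv1* was at 8.08 and 7.59 FPKM in Dhps cko and at 6.41 and 3.69 FPKM in Dhps flox, and held between 65.1% and 77.8% of the lambda FPKM. *Iglv2* was at 2.84, 3.44, 1.66 and 1.47 FPKM and *Iglv3* at 0.46, 0.63, 0.17 and 0.23 FPKM. *Iglv1* was above *Iglv2* and *Iglv2* above *Iglv3* in every library.

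**Figure D2:**
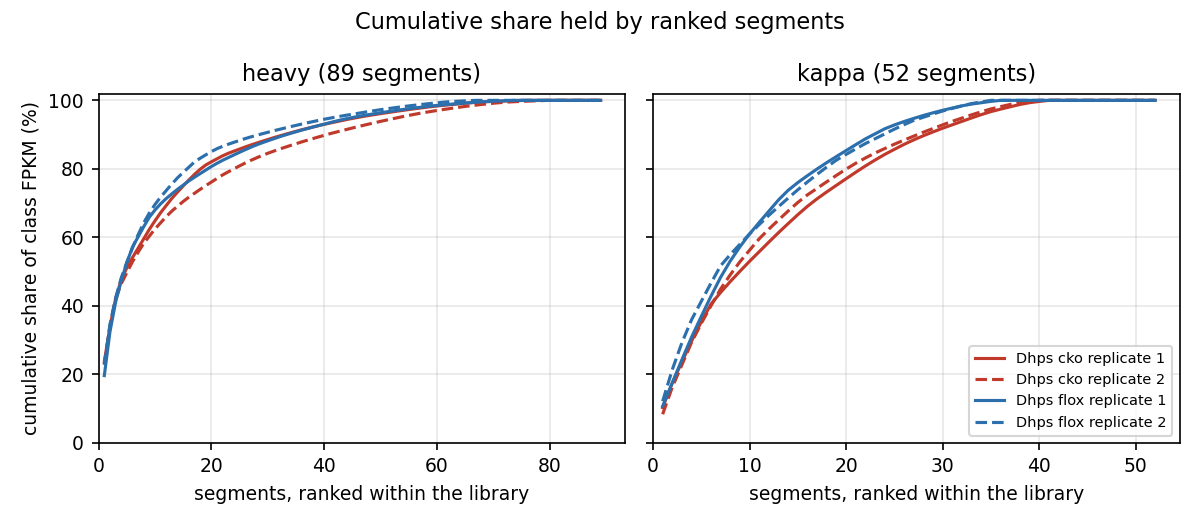
Cumulative share of the class FPKM (vertical axis, percent) held by the segments ranked from most to least abundant within each library (horizontal axis), for the 89 heavy members and the 52 kappa members. Each line is a library, red for Dhps cko and blue for Dhps flox. The heavy curves climb to between 46.4% and 48.2% within 4 segments, and the kappa curves only to between 29.4% and 36.0%.

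How alike the libraries were in their use of segments is given as a description, since the points share depth and sequence. Across the 89 heavy members, Spearman's rho between libraries lay between 0.634 and 0.736, and across the 22 heavy members of at least 1 FPKM between 0.674 and 0.888. Across the 52 kappa members it was only 0.326 to 0.432. Over all heavy members the Dhps cko pair gave 0.736 and the Dhps flox pair 0.634, and pairs of different genotypes lay between them. For the 22 heavy members of at least 1 FPKM the median coefficient of variation over the 4 libraries was 21.97%, and the counting error alone would give a median of 18.3%. In 5 of them the variation was more than 2 times the counting error. *Ighv6-3* varied the most, at 3.99, 1.48, 0.71 and 1.22 FPKM, with the first library apart from the other 3. *Ighv3-6* was at 3.64, 1.82, 1.63 and 5.60 FPKM, high in 1 library of each genotype. These 2 segments were chosen after their values were seen.

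**Figure D3:**
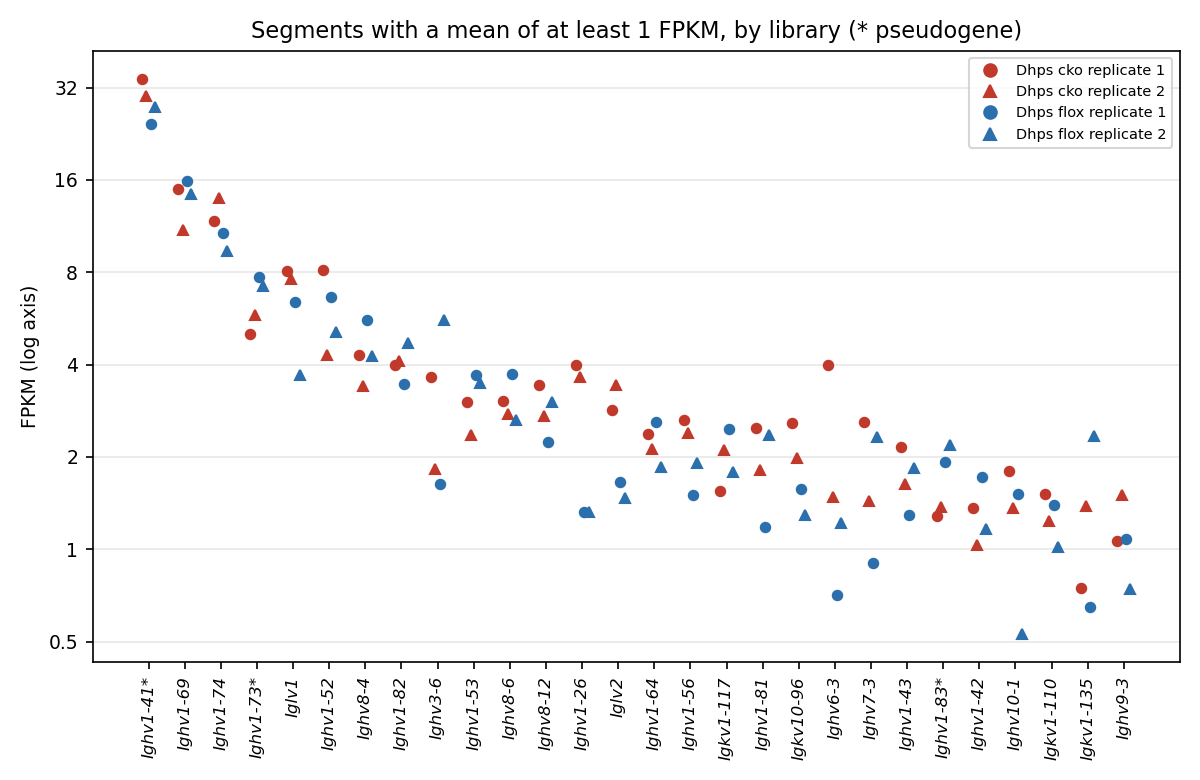
FPKM on a log axis of each of the 28 segments with a mean of at least 1 FPKM, ordered by mean level, in each library (red Dhps cko, blue Dhps flox, circles replicate 1, triangles replicate 2). *Ighv1-41* leads in all 4 libraries, between 24.4 and 34.3 FPKM, and for most segments the red and blue points interleave.

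Dhps cko was then compared with Dhps flox, to ask whether loss of *Dhps* in myeloid cells went with a different level of V transcripts. The summed level of all members was higher in Dhps cko for each chain, without overlap. With only members of at least 1 FPKM the libraries overlapped for heavy (121.29 and 101.98 FPKM against 101.54 and 104.99 FPKM) and for kappa (6.38 and 6.71 against 6.08 and 6.43 FPKM), and not for lambda. The heavy sum was 138 ± 10.0 FPKM (SD, n = 2) in Dhps cko and 123 ± 1.66 (SD, n = 2) in Dhps flox, or 112% of Dhps flox. The kappa sum was 25.1 ± 0.141 against 21.2 ± 2.72 FPKM (SD, n = 2 each), or 118%. The lambda sum was 11.5 ± 0.198 against 6.82 ± 2.02 FPKM (SD, n = 2 each), or 169%. As a percentage the difference was largest for lambda. The order of heavy and kappa turned without Dhps flox replicate 2 (111% and 108%) and with only members of at least 1 FPKM (108% and 105%), and it was not tested whether the chains differed. In bulk libraries, fewer cells of a type and less RNA per cell cannot be told apart.

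The constant genes, which are transcribed with the joined V segment, were higher in Dhps cko by more than the heavy and kappa V segments were. *Ighm*, the constant gene of IgM, was at 40.6 and 42.9 FPKM in Dhps cko and at 27.0 and 32.0 FPKM in Dhps flox. *Igkc*, the kappa constant gene, was at 27.8, 28.2, 18.7 and 13.6 FPKM. The summed constant genes stood in Dhps cko at 140% of Dhps flox for heavy, 173% for kappa and 164% for lambda. Of 11 constant genes listed, 8 were tested, all 8 had a higher mean on the log2 scale in Dhps cko, 6 did so without overlap and 0 passed limma's test (smallest adjusted p = 0.39, for *Iglc3*, with an unadjusted p under 0.05 in 6). Over all genes tested, 20.0% were higher without overlap and 4.72% were higher with an unadjusted p under 0.05. *Igha*, the constant gene of IgA, was at 4.26, 2.25, 5.39 and 1.34 FPKM, with full overlap, and the IgG constant genes stayed below 1 FPKM in every library.

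The ratio of V to constant FPKM was therefore lower in Dhps cko for heavy and kappa. For heavy it was 2.95 and 2.71 in Dhps cko and 3.60 and 3.47 in Dhps flox. With the pseudogenes left out it was 2.08, 1.91, 2.56 and 2.36, and with the 4 most abundant segments left out 1.61, 1.45, 1.9 and 1.80, in each case without overlap. For kappa the ratio was 0.899 and 0.893 in Dhps cko and 1.23 and 1.42 in Dhps flox. For lambda it was 1.18, 1.34, 1.43 and 0.996, with the genotypes overlapping. The heavy ratio was above 1 in every library, so that per kilobase more V than constant transcript was listed, and this held without *Ighv1-41* and the 3 segments behind it.

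**Figure D4:**
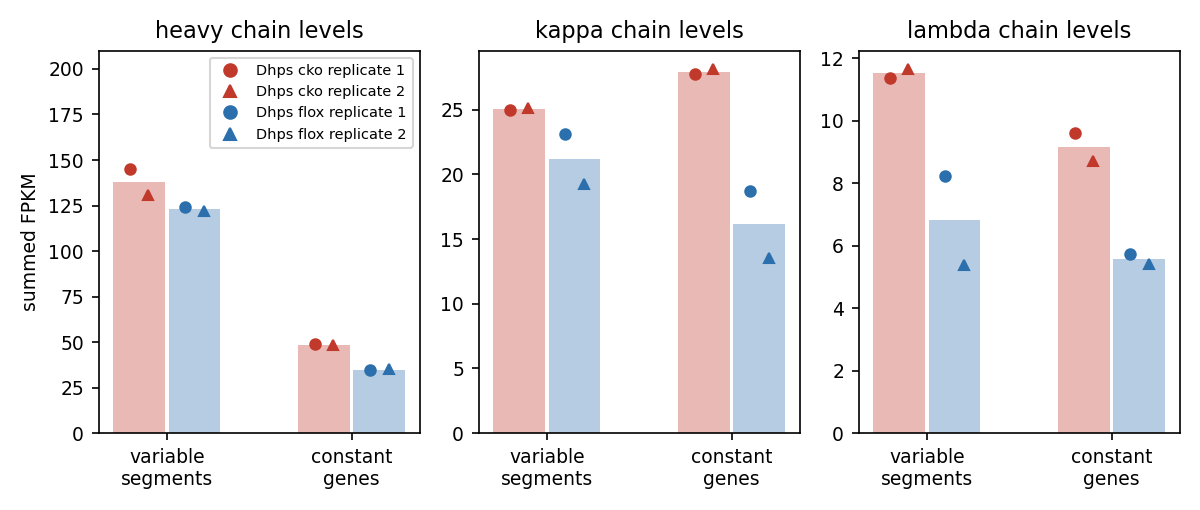
Summed FPKM (vertical axes, from 0) of the V segments and of the constant genes of each chain, by genotype. Bars are means of 2 libraries and points the libraries themselves. Each Dhps cko point lies above each Dhps flox point in all 6 pairs, and only for the heavy chain do the V segments exceed the constant genes in every library by a wide margin, 122 to 145 FPKM against 34.5 to 49.1 FPKM.

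Most B cell markers also had a higher mean in Dhps cko, though none passed the test with adjustment. Of 12 B cell markers, 11 had a higher mean on the log2 scale in Dhps cko, 8 of them without overlap, and 0 passed the test with adjustment while 4 had an unadjusted p under 0.05, beside the same 20.0% and 4.72% of all genes. *Cd79a*, a signalling chain of the B cell receptor, was at 6.81 and 7.80 FPKM in Dhps cko and at 3.70 and 5.30 FPKM in Dhps flox. The 12 markers summed to 30.6, 31.7, 19.4 and 25.2 FPKM, or 140% of Dhps flox, and none of them was at 0 in any library. Relative to that sum, the kappa V ratio was 0.816, 0.794, 1.19 and 0.765 and the lambda V ratio 0.372, 0.368, 0.425 and 0.214, both with overlapping genotypes. The heavy V ratio was 4.74 and 4.13 in Dhps cko and 6.41 and 4.84 in Dhps flox, lower in Dhps cko without overlap. All 9 T cell markers and all 10 monocyte and macrophage markers also had a higher mean on that scale. So did 10 of 12 neutrophil markers and all 7 erythroid markers, where 9371 of all 17953 genes tested did. In that order of lists, 5, 8, 4 and 1 were higher without overlap. By limma 3, 6, 1 and 0 had an unadjusted p under 0.05, and none passed with adjustment. Summed T cell markers were at 16.03 to 19.95 FPKM in Dhps cko and at 8.38 to 13.0 FPKM in Dhps flox. Summed monocyte and macrophage markers were at 391 to 397 and 324 to 325 FPKM, and summed erythroid markers at 730 to 877 and 605 to 911 FPKM. The part of other cells in the V segment values was not tested.

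Segment by segment, 0 of the 144 members passed limma's test at an adjusted p under 0.05, where 0.00557% of all 17953 genes tested did. An unadjusted p under 0.05 was reached by 31 members, 23 higher (16.0% of the members) and 8 lower (5.56%) in Dhps cko, against 7.0% of all genes in either direction, 4.72% higher and 2.28% lower. Of these 31, 13 were at 0 in both libraries of a genotype and so had no spread there. Among the 124 members that were not at 0 in both libraries of a genotype, 14 were higher and 4 lower at that level, or 14.5%. The libraries did not overlap in 30 members higher in Dhps cko (20.8%) and in 14 lower (9.72%), where all genes gave 20.0% higher and 16.0% lower. Counted this way, the higher share of the members was near that of all genes. The members had a median log2 fold change of 0.33 and all genes tested one of 0.01. Of the members, 89 had a higher and 54 a lower mean on the log2 scale in Dhps cko, where 9371 and 8580 of all 17953 genes did. Without Dhps flox replicate 2 the median log2 fold change of the members was 0.20. The counts in this paragraph describe the members, since a segment that was low in 1 genotype passed the level through the other.

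The members were then counted by chain, beside the 4.72% of all genes that were higher and the 2.28% that were lower with an unadjusted p under 0.05. Of 89 heavy members 11 were higher and 5 lower at that level (18.0% in all), of 52 kappa members 9 and 3 (23.1%), and of 3 lambda members 3 and 0. The median log2 fold change was 0.30 for heavy, 0.35 for kappa and 0.96 for lambda members. Among the 28 members of at least 1 FPKM, where counting error is smallest, 7 were higher and 3 lower with an unadjusted p under 0.05 (35.7%) and the median was 0.20. Of all 10629 genes of at least 1 FPKM, 7.45% had such a p. It was not tested whether the chains differed.

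The smallest p belonged to *Ighv1-26*, a functional heavy segment. It was at 4.0 and 3.64 FPKM in Dhps cko and at 1.32 FPKM in both Dhps flox libraries, so the libraries of each genotype lay close together and far from the other. Its log2 fold change was 1.46 (SE 0.13), with an adjusted p of 0.24 by limma with the Benjamini-Hochberg method, and it rested on about 14 to 46 fragments in a library. Words of 51 bases shared with other transcripts made up 47.5% of it. The low value was repeated in Dhps flox, yet the difference did not pass the test over all genes.

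The abundant heavy segments differed little and not all in 1 direction. *Ighv1-41* had a log2 fold change of 0.30 (SE 0.10, limma adjusted p = 0.65), with both Dhps cko libraries above both Dhps flox libraries. *Ighv1-74* gave 0.35 (SE 0.12, adjusted p = 0.67 by limma), also without overlap. *Ighv1-69*, by contrast, gave -0.24 (SE 0.16, adjusted p = 0.81 by limma) with overlap. The pseudogene *Ighv1-73*, which lies beside *Ighv1-74* on the chromosome, gave -0.46 (SE 0.11, limma adjusted p = 0.53), lower in Dhps cko without overlap. The pseudogene *Ighv1-83*, chosen after its values were seen, was at 1.28, 1.37, 1.93 and 2.19 FPKM, also lower without overlap. None of these differences passed the test.

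All 3 lambda members were higher in Dhps cko without overlap, where 20.0% of all genes were. *Iglv2* had a log2 fold change of 0.96 (SE 0.16, limma adjusted p = 0.46), *Iglv3* one of 1.10 (SE 0.32) and *Iglv1* one of 0.68 (SE 0.26, limma adjusted p = 0.71). The lambda constant genes *Iglc1*, *Iglc2* and *Iglc3* gave 0.55, 0.64 and 0.88. As *Iglv1* and *Iglv2* are nearly identical, they are not independent of each other. Of the leading kappa segments, *Igkv10-96* gave 0.63 (SE 0.19, limma adjusted p = 0.63) and was higher without overlap, while *Igkv1-117* (-0.21), *Igkv1-135* (-0.27), *Igkv1-110* (0.19), *Igkv5-48* (0.54) and *Igkv14-111* (0.27) overlapped.

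**Figure D5:**
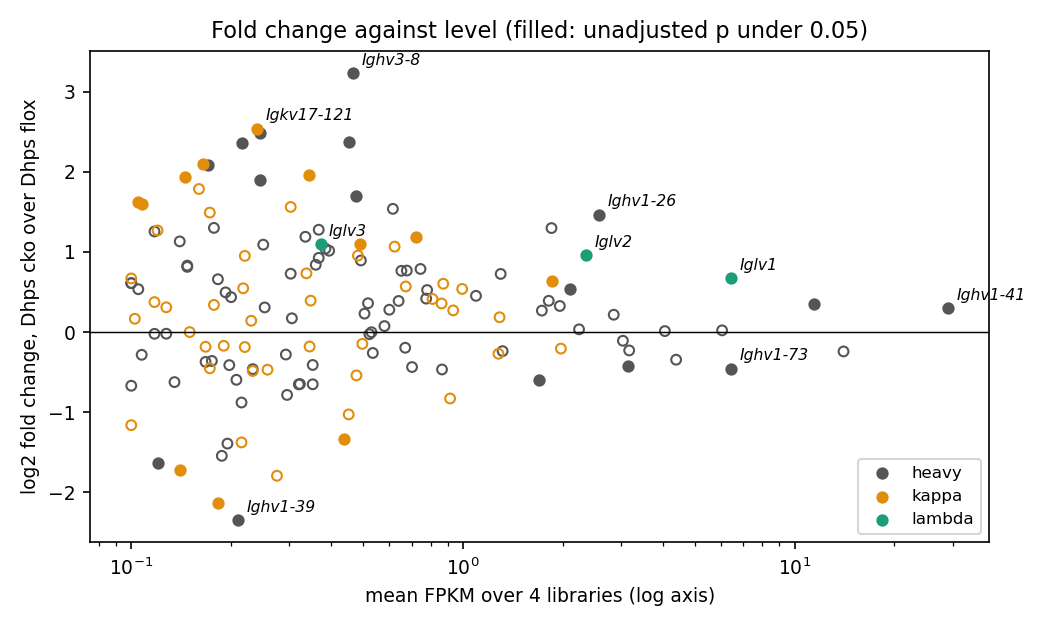
Log2 fold change of Dhps cko over Dhps flox on log2(FPKM + 0.1) (vertical axis) against mean FPKM on a log axis (horizontal) for the 144 members, coloured by chain. Filled points have an unadjusted p under 0.05, and none passed with adjustment. The spread widens toward 0.1 FPKM, and the 3 lambda members all lie above 0.

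Other segments with a small p were listed at 0 in a genotype. *Ighv3-8* was at 0.50 and 1.37 FPKM in Dhps cko and listed at 0 in both Dhps flox libraries. *Igkv17-121* was at 0.48 FPKM in both Dhps cko libraries and *Igkv17-127* at 0.37 and 0.29 FPKM, and both, the only *Igkv17* segments listed, were at 0 in both Dhps flox libraries. *Ighv5-12*, *Ighv1-11* and *Ighv12-3* were likewise listed at 0 in both Dhps flox libraries, with at most 0.68 FPKM in Dhps cko. In the other direction, *Ighv1-39* was listed at 0 in both Dhps cko libraries and at 0.53 and 0.31 FPKM in Dhps flox. In all, 13 members were at 0 in both Dhps flox libraries and 7 in both Dhps cko libraries. No fold is given for them, since each rested on few fragments, about 23 over all libraries for *Ighv3-8* and fewer for the others named. Of the 41 members of 0.1 up to 0.2 FPKM, 9 were at 0 in both Dhps flox libraries and 5 in both Dhps cko libraries. Of all 2302 genes tested in that range, 80 and 78 were. *Ighv1-18* was above 0 in every library, at 0.78, 0.77, 0.12 and 0.23 FPKM, and *Igkv8-21* at 0.17, 0.24, 0.76 and 0.58 FPKM.

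Segments known from natural antibodies of B-1 cells and from early-life repertoires were looked at as a list. Of 7 such segments, 6 were members, and all were below a mean of 0.9 FPKM. *Igkv4-91* was at 1.79, 0.48, 0.78 and 0.44 FPKM and *Ighv7-1* at 0.24, 0.92, 0.26 and 0.60 FPKM. *Ighv5-2*, a segment close to the D segments that is used early in life, was at 0.13, 0.61, 0 and 0.26 FPKM. *Ighv11-2* and *Ighv12-3*, both used by B-1 cells against phosphatidylcholine, were at 0, 0.29, 0.64 and 0 FPKM and at 0.22, 0.46, 0 and 0 FPKM. *Igkv14-126* was listed at 0 in both Dhps cko libraries, and *Igkv7-33* was below the level of a member. Of the 6 tested, 4 had a higher and 2 a lower mean in Dhps cko, and 0 passed the test with adjustment while 2 had an unadjusted p under 0.05, against 7.0% of all genes. These 2 were *Ighv12-3* and *Igkv14-126*, each listed at 0 in both libraries of a genotype and so without spread there.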

How the data were processed

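RNA of PMN-MDSCs had been sequenced in 4 libraries, 2 Dhps cko and 2 Dhps flox. The authors filtered reads with Cutadapt, aligned them with HISAT2 (mm10 in the submitters' processing notes), and deposited FPKM per gene, rounded to 2 decimals, from StringTie and ballgown. The annotation release, strand setting and handling of reads with several matches are not given in the sources used here. Because V segments resemble each other, that handling can move FPKM between them.

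Groups came from the genotype label. The 17953 genes that reached 0.1 FPKM on average were compared on log2(FPKM + 0.1), which understates changes of low genes, with limma 3.58.1 (lmFit and eBayes with trend) in R 4.3.3, without a block. Benjamini-Hochberg adjustment ran over all of them, with a threshold of 0.05. The comparison was tested on simulated data. Count tests were not run, as the files hold no counts. Among low values of short genes with 1 exon (200 to 1500 bases), 40.0% to 42.8% lay within 0.15 of a whole fragment (30% by chance), so whole reads were not recovered and depths are approximate. All 207 segments matched GENCODE M21 (GRCm38) by identifier, which gave positions, gene types and transcript sequences. Segments were aligned and shared words of 51 bases counted in Python 3.11.15 with Biopython 1.88.

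Members, gene lists and tests were chosen with earlier results of these data known. Named were the 6 most abundant heavy and kappa members, all lambda members, members with at least 10% of their class, those with an adjusted p under 0.05 or up to 10 with the smallest p and a 2-fold change, those at the threshold, the natural-antibody list, constant genes and marker lists. Alternatives covered pseudocount, filter, scaling, trend, replicate block and leaving out each library.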

Additional observations from a re-analysis of the deposited data

How the results depend on the processing

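With 2 libraries a genotype and no read counts, depth limits the low segments most. Of all genes tested, 1 passed the adjusted threshold. It became 4 with only genes of at least 1 FPKM, 2 with quantile normalization, 0 with a pseudocount of 0.01, without a filter on low values and with the replicate block, and 0 when any library was left out. Among the members the count was 0 under every alternative run, and the smallest adjusted p of a member lay between 0.065, for *Ighv1-26* among genes of at least 1 FPKM, and 0.95, without Dhps cko replicate 2. With only genes of at least 1 FPKM, 28 members were tested, 11 with an unadjusted p under 0.05, 8 of them higher, and 18 with a higher mean in Dhps cko. Of all 10629 genes of that level, 5621 had a higher mean. The share of these genes with such a p was not counted in this fit, so the 11 has no background here. In the main fit the share was 7.45%, beside 35.7% of the same 28 members. The median log2 fold change of the members was 0.42 with a pseudocount of 0.01, 0.11 with a pseudocount of 1, 0.20 with members of at least 1 FPKM, and between 0.20, without Dhps flox replicate 2, and 0.34 when a library was left out. The replicate numbers were not taken to pair the libraries: replicate differences of both genotypes had r = -0.06 across 10629 genes. With the block, the smallest adjusted p of a member by limma was 0.42 in place of 0.24, for *Ighv1-26* in both.

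The heavy sum of Dhps cko lay between 106% and 118% of Dhps flox when a library was left out, the kappa sum between 108% and 130% and the lambda sum between 140% and 214%. With members of at least 1 FPKM the kappa sum was 105%, *Ighv1-41* held 27.0% of the heavy FPKM and *Igkv1-117* held 31.0% of the kappa FPKM, because fewer segments were summed. Of 536 fold changes of 43 named genes under alternatives, 512 kept their direction. The log2 fold change of *Ighv1-52* was -0.0096 when scaled to TPM and ran from -0.43 to 0.47 when a library was left out. The other reversals came only from leaving out a library. The ranges then ran from -0.43 to 0.019 for *Igkv1-117*, from -0.021 to 0.39 for *Igkv1-110*, from -1.12 to 0.58 for *Igkv1-135*, from -0.55 to 1.63 for *Igkv5-48* and from -0.63 to 1.17 for *Igkv14-111*. They ran from -0.42 to 1.65 for *Ighv1-36* and *Ighv14-3*, from -1.72 to 0.38 for *Ighv1-77*, from -0.38 to 1.72 for *Igkv4-50*, from -1.91 to 0.98 for *Ighv11-2*, from -0.56 to 1.02 for *Ighv7-1*, from -0.25 to 1.46 for *Igkv4-91* and from -0.78 to 1.15 for *Igha*. The cause was not tested.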

Other observations

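T cell receptor V segments, which T cells join as B cells join immunoglobulin segments, gave a second set of V transcripts in the same libraries. Of 68 listed, 13 had a mean of at least 0.1 FPKM, and all 13 were *Trbv* segments of the beta chain. They summed to 10.2 and 7.82 FPKM in Dhps cko and to 7.62 and 4.61 FPKM in Dhps flox. These sums were far below those of the heavy chain immunoglobulin V segments. They lay near those of the lambda V segments, at 11.4 and 11.7 FPKM in Dhps cko and 8.24 and 5.39 FPKM in Dhps flox. *Trbv1* led, at 5.17 and 5.08 FPKM in Dhps cko and at 3.93 and 3.95 FPKM in Dhps flox, and no other reached a mean of 0.6 FPKM. *Trbc2*, a beta constant gene, was at 8.25, 5.36, 3.57 and 1.51 FPKM. Of the 13, 9 had a higher mean in Dhps cko, 4 were higher without overlap and 0 lower, 3 had an unadjusted p under 0.05, all higher and 2 of them (*Trbv12-2* and *Trbv16*) listed at 0 in both Dhps flox libraries, and 0 passed limma's test with adjustment. Over all genes tested, 20.0% were higher and 16.0% lower without overlap, and 7.0% had an unadjusted p under 0.05.

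Markers of other stages of the B cell lineage were also read. The 8 pre-B cell markers summed to 2.23, 1.49, 1.40 and 0.80 FPKM, and 4 of them reached a mean of 0.1 FPKM. Of the 8 plasma cell markers, *Xbp1*, which many secretory and myeloid cells also express, made up nearly all of the sum, at 25.2, 25.9, 25.6 and 23.8 FPKM. *Jchain*, which links IgM and IgA into polymers, was at 1.76, 1.24, 1.12 and 0.47 FPKM. Of the plasma cell markers tested, 4 had a higher and 2 a lower mean in Dhps cko, and 0 had an unadjusted p under 0.05, against 7.0% of all genes.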
